A study of Mus musculus with 31 samples.

Results

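The genes described here are the 10 that make up the core of antigen presentation on major histocompatibility complex (MHC) class II molecules in mice, 10 of the 29120 gene IDs counted in the series. They were listed by name for their role in this pathway, with earlier results of these data known. The list holds the class II chains H2-Aa, H2-Ab1 and H2-Eb1, the invariant chain Cd74, the peptide editors H2-DMa and H2-DMb1, their inhibitors H2-Oa and H2-Ob, the transcriptional coactivator Ciita and the ubiquitin ligase March1. All 10 were found by Ensembl ID, and all 10 passed the filter on low counts in dendritic cells and in spleen. The 31 RNA-seq libraries came from C57BL/6 mice and fell into 6 groups. Bone marrow of male mice aged 8 to 16 weeks, wild-type or Gpr34-/-, was grown for 10 days with GM-CSF-containing medium into dendritic cells, which were left naive (n = 3 wild-type, n = 3 labelled Gpr34-/-) or given LPS on day 11 for 8 h (n = 3 of each genotype). The dose of LPS is not given in the sources used here. Whole spleens came from wild-type mice (n = 10) and Gpr34-/- mice (n = 9) aged 12 weeks. Gpr34 is a G protein-coupled receptor, and the title of the series asks how its expression is regulated.

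Class II molecules are pairs of an alpha and a beta chain that carry peptides from endosomes to the cell surface and show them to CD4+ T cells. Cd74 fills the peptide groove during assembly, H2-DM removes the last fragment of Cd74 and edits the peptides, and H2-O restrains H2-DM, mainly in B cells. Transcription of these genes depends on Ciita, which does not bind DNA itself but is held by RFX, CREB and NF-Y factors on conserved promoter elements called the X and Y boxes. Mature dendritic cells are known for stable surface class II, since March1, which marks class II chains for degradation, is lost as the cells mature. C57BL/6 mice carry a defective H2-Ea gene, so that H2-Eb1 has no normal partner chain in them.

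Total counts were 38998746 to 74164853 in the 12 dendritic cell libraries and 56834377 to 133277070 in the 19 spleens. Levels are given as CPM, counts scaled to a common library size by TMM, which corrects for a few abundant genes taking a large share of reads. The targeted gene, Gpr34, was counted 324, 199 and 226 times in wild-type naive cells and 125, 65 and 65 times after LPS. Libraries labelled knockout gave 0, 120 and 4 Gpr34 counts (naive replicates 2, 3 and 4) and 0, 117 and 104 (LPS, same order). LPS replicates 3 and 4, at 2.34 and 2.22 CPM, did not follow their label by this measure. The wild-type LPS libraries were at 1.46 to 3.44 CPM. Naive replicate 3, at 1.48 CPM, lay below the wild-type naive libraries (3.17 to 4.82 CPM). Wild-type spleens held 308 to 986 Gpr34 counts (4.13 to 9.02 CPM), and knockout spleens 42 to 156 (0.398 to 1.66 CPM). Naive replicate 3 lay above the other naive libraries labelled knockout, replicates 2 and 4 (0 and 0.0823 CPM), and its label was not tested further. Dendritic cell markers were present in the cultures, with Itgax at 530 CPM, Clec10a at 171 CPM, Zbtb46 at 25.9 CPM, Batf3 at 16.4 CPM and Flt3 at 14 CPM in naive wild-type cells. Markers of particular conventional subsets were near 0 or low there (Clec9a 6.09, Cd209a 0.507 and Xcr1 0.208 CPM), and the 8 genes summed to 714 to 819 CPM, against 222 to 265 CPM in wild-type spleens. Macrophage markers were present too, whose 9 genes summed to 1339 to 1568 CPM there. A GM-CSF culture holds several kinds of myeloid cell and whole spleen many cell types: fewer cells of a type and less RNA per cell cannot be told apart. The labels number the replicates without naming animals, so the spread behind each p-value is that between libraries, which may be technical.

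Per kb of exon, the scale used here to compare genes with each other, Cd74 stood far above the other members in every group. The order of genes close in level depends on the exon lengths taken, which are those of GRCm38. In naive wild-type dendritic cells Cd74 was at 5229 CPM per kb. The class II chains followed at 547 (H2-Eb1), 416 (H2-Ab1) and 354 (H2-Aa) CPM per kb. The H2-DM genes came next, with 45.4 CPM per kb for H2-DMb1 and 33.7 for H2-DMa, and the regulators Ciita (13.1) and March1 (11.5) lay beside H2-Oa (11.9). H2-Ob was lowest at 1.8 CPM per kb. By CPM, Cd74 ranked between the 3rd and the 4th gene of all in each naive wild-type library, and H2-Aa between the 41st and the 69th. The 10 genes took 1.45% ± 0.121 (SD, n = 3) of all counts in naive wild-type cells and 1.66% ± 0.115 (SD, n = 3) after LPS. In wild-type spleens they took 1.73% ± 0.204 (SD, n = 10). Cd74 alone made up 69.3% ± 0.819 (SD, n = 3) of the members' summed CPM in naive wild-type cells and 61.3% ± 0.672 after LPS, with no overlap between the groups.

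The promoters of the members are shown because the shared X and Y boxes are what Ciita acts through. RefSeq windows of 300 bases (250 before and 50 after a start site, GRCm38.p6) matched 7 of the 10 members. They were searched on both strands for the Y box letters ATTGG and for an X box pattern, which is AG, any 2 bases, AC, any 1 base, then GATG. Capitals mark the letters taken as X box (the first run, with at most 1 mismatch) and Y box (the second run), each sequence reading 5′ to 3′ on the gene's strand with 12 bases on either side. H2-Aa has a single run of capitals, the Y box, and is shown from further upstream.
H2-Eb1, chr17:34305763-34305824, + strand: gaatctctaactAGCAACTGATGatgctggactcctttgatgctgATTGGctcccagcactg
H2-Ob, chr17:34238805-34238864, + strand: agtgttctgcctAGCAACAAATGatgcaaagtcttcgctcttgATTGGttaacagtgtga
H2-Aa, chr17:34287855-34287916, - strand: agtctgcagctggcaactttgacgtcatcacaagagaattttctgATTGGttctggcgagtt
H2-Eb2, chr17:34325530-34325591, + strand: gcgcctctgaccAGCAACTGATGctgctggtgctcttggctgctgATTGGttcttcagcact
H2-DMb2, chr17:34145113-34145175, + strand: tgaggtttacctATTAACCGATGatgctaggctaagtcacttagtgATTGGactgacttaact
In H2-Eb1 the X letters matched in full and the Y letters began 33 bases after the start of the X letters. In H2-Ob the X letters matched with 1 mismatch and the distance was 31 bases. The window of H2-Aa held the Y letters, ending 43 bases before the start site, and no match to the X pattern with at most 1 mismatch. H2-Eb2 and H2-DMb2, genes of the same cluster that are not among the 10, held the pair at distances of 33 and 34 bases, and so did H2-DMb1, whose match overlaps an annotated exon of its own. A pair with a full X match and a distance of 25 to 45 bases was found in 9 of 32851 windows (0.0274%), and a pair with at most 1 mismatch in 136 (0.414%). The letters ATTGG alone were in 37.4% of windows, so they single out no gene. The windows of H2-Oa, H2-DMa and March1 held no such pair. That of H2-Oa did hold a full X match and a Y match, but not at such a distance on the same strand. A full X match was in 0.968% of all windows. These matches describe letters only: H2-Eb1 and H2-Ob both held the pair, and were at 547 and 1.8 CPM per kb in naive wild-type cells.

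LPS raised 6 of the 10 members in wild-type dendritic cells and lowered 1, by edgeR's quasi-likelihood test with a Benjamini-Hochberg adjusted p under 0.05. Ciita, the 3 class II chains, Cd74 and H2-DMb1 rose, H2-DMa fell, and H2-Oa, H2-Ob and March1 did not pass. Over all 16965 genes tested, 33.9% were called, 18.1% higher and 15.8% lower. The members' median log2 fold change was 0.45, beside -0.03 over all genes. The lowest LPS library lay above the highest naive library, or the reverse, for 8 of the 10 members, and for 50.9% of all genes.

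**Figure D1:**
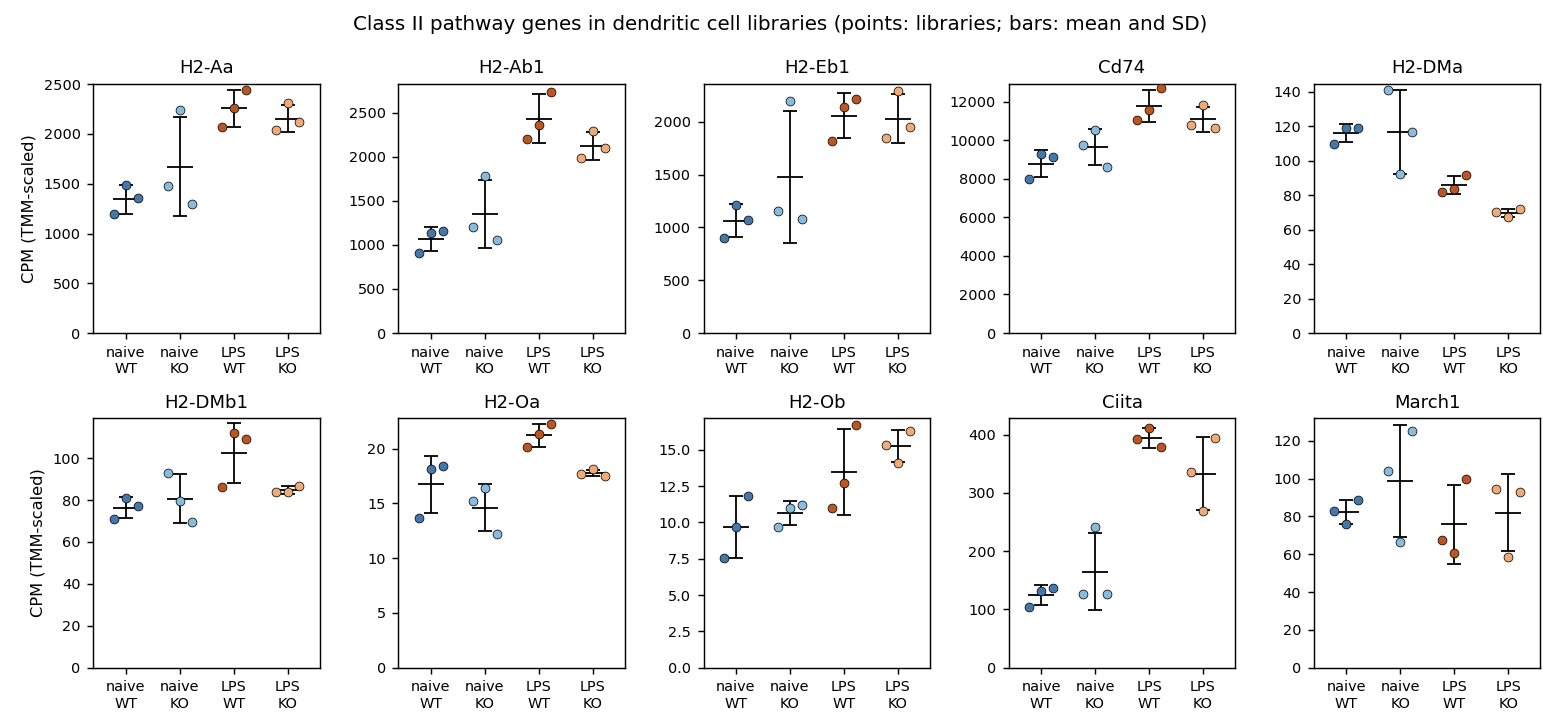
Level of each of the 10 genes (y axis, CPM on TMM-scaled library sizes, from 0) in the 12 dendritic cell libraries, grouped on the x axis by treatment and labelled genotype (WT, wild-type; KO, labelled knockout); points are libraries, bars mean and SD (n = 3). Ciita and H2-Ab1 lie higher in all LPS libraries than in all naive ones, H2-DMa lies lower, and 1 naive library labelled knockout is high for H2-Aa, H2-Ab1, H2-Eb1 and Ciita.

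Among the class II chains, H2-Ab1 (ENSMUSG00000073421, chr17:34257689-34269419, + strand, GRCm38), the beta chain of the I-A molecule, changed most. It was at 913, 1134 and 1162 CPM in naive wild-type replicates 1, 2 and 4, and at 2204, 2357 and 2740 CPM in LPS replicates 1, 2 and 3. Every LPS library lay above every naive one, and the log2 fold change was 1.19 (SE 0.18, adjusted p = 0.000572), a 2.28-fold rise. Its partner H2-Aa (ENSMUSG00000036594, chr17:34282744-34287823, - strand), the alpha chain, went from 1191, 1486 and 1354 CPM to 2068, 2261 and 2440 CPM. The groups did not overlap, and the log2 fold change was 0.75 (SE 0.18, adjusted p = 0.00728). H2-Eb1 (ENSMUSG00000060586, chr17:34305867-34316674, + strand), the beta chain of the I-E molecule, went from 903, 1212 and 1073 CPM to 1818, 2143 and 2217 CPM. Its log2 fold change was 0.95 (SE 0.24, adjusted p = 0.0102). H2-Eb1 thus rose with the I-A chains although its usual partner gene is defective in this strain. Without naive replicate 1, the lowest of the naive libraries for all 3 chains, H2-Eb1 had a log2 fold change of 0.81 (adjusted p = 0.0534).

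Cd74 (ENSMUSG00000024610, chr18:60803848-60812652, + strand), the invariant chain, was at 7965, 9262 and 9110 CPM in naive wild-type cells and at 11039, 11582 and 12693 CPM after LPS. It rose by 0.42 on the log2 scale (SE 0.10, adjusted p = 0.00687), or 1.34-fold, and without naive replicate 1 the value was 0.32 (adjusted p = 0.0578). Cd74 rose in proportion less than H2-Ab1: the ratio of Cd74 to H2-Ab1 per kb was 12.6 ± 0.683 (SD, n = 3) in naive cells and 7.42 ± 0.299 after LPS. These ratios are taken within a library and do not depend on the scaling between libraries. The ratio of H2-Aa to H2-Ab1 per kb likewise went from 0.852 ± 0.0556 to 0.628 ± 0.0239 (SD, n = 3). Neither ratio overlapped between naive and LPS libraries. They were not tested, since 3 libraries against 3 cannot give an exact permutation p under 0.1.

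The H2-DM chains moved in opposite directions. H2-DMa (ENSMUSG00000037649, chr17:34119541-34139101, + strand), the alpha chain of the peptide editor, was at 110, 119 and 119 CPM in naive wild-type cells and at 81.8, 83.7 and 91.8 CPM after LPS. It fell by 0.44 on the log2 scale (SE 0.13, adjusted p = 0.023). H2-DMb1 (ENSMUSG00000079547, chr17:34153072-34160230, + strand), a beta chain of the same molecule, was at 70.9, 80.8 and 77.2 CPM in naive cells and at 86, 112 and 109 CPM after LPS. It rose by 0.42 on the log2 scale (SE 0.12, adjusted p = 0.0219). The ratio of H2-DMb1 to H2-DMa per kb was 1.32 to 1.4 in naive libraries and 2.16 to 2.74 after LPS, so the separation of the chains was seen in every library. Both calls lie near the threshold: H2-DMa lost its call without 4 of the 6 wild-type libraries left out in turn (adjusted p up to 0.0772), and H2-DMb1 without 5 of them (adjusted p up to 0.123).

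**Figure D2:**
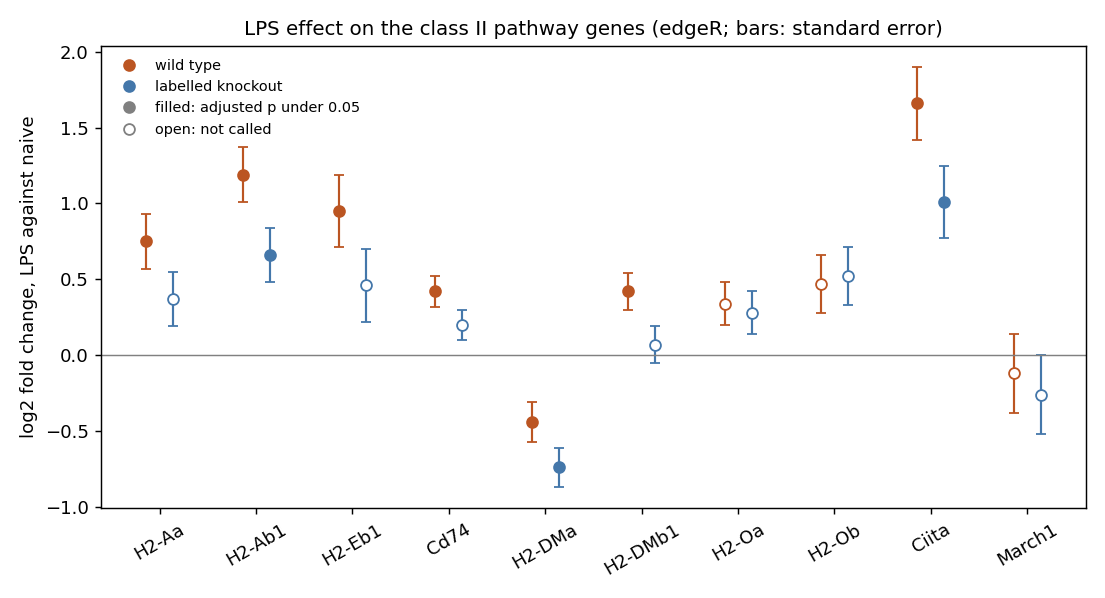
Log2 fold change of LPS-treated against naive dendritic cells (y axis) for each of the 10 genes (x axis), in wild-type libraries (orange) and in libraries labelled knockout (blue), with bars for the standard error of the edgeR fit; filled points have an adjusted p under 0.05. Ciita and H2-Ab1 are filled and above 0 and H2-DMa is filled and below 0 in both sets, while H2-Aa, H2-Eb1, Cd74 and H2-DMb1 are filled in wild type alone.

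The inhibitor H2-O is read from H2-Oa (ENSMUSG00000024334, chr17:34092340-34095234, + strand) and H2-Ob (ENSMUSG00000041538, chr17:34238903-34254414, + strand), both low in these cultures. H2-Oa was at 13.7, 18.1 and 18.4 CPM in naive wild-type cells and at 20.1, 21.3 and 22.2 CPM after LPS (log2 fold change 0.34, SE 0.14, adjusted p = 0.0893). H2-Ob was at 7.57, 9.67 and 11.8 CPM and then at 11, 12.7 and 16.7 CPM (0.47, SE 0.19, adjusted p = 0.0774), with overlapping groups. Neither passed the test. Summed per kb, the H2-O genes were at 0.173 ± 0.0201 (SD, n = 3) of the H2-DM genes in naive cells and at 0.206 ± 0.0132 after LPS.

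Ciita (ENSMUSG00000022504, chr16:10480059-10528418, + strand), the coactivator on which the class II promoters depend, changed most of the 10. It was at 105, 132 and 137 CPM in naive wild-type cells and at 393, 412 and 378 CPM after LPS. The LPS libraries lay within a narrow band far above the naive ones, and its log2 fold change was 1.66 (SE 0.24, adjusted p = 0.000423), a 3.16-fold rise. March1 (ENSMUSG00000036469, chr8:65617900-66471637, + strand), the ligase that marks class II chains for degradation, was at 82.8, 75.9 and 88.5 CPM and then at 67.4, 60.5 and 99.6 CPM. Its highest and its lowest values were both in LPS libraries, and the log2 fold change was -0.12 (SE 0.26, adjusted p = 0.766), which reversed to 0.02 without LPS replicate 2. A fall of March1 RNA was thus not detectable at 8 h in these 6 libraries on TMM-scaled sizes. On plain library sizes March1 was at 95.9, 86.6 and 101 CPM in naive cells and at 58.2, 53.2 and 84.4 CPM after LPS. Over the alternatives run its log2 fold change ranged from -0.54 to 0.04, and none of them called it.

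The scaling between libraries bears on the direction of the smaller changes. The 9 housekeeping genes listed summed to 11056 to 12312 CPM in naive wild-type libraries and to 22786 to 25550 CPM after LPS. Such a sum is weighted to the most abundant of them. Gene by gene their median log2 fold change was 0.12 (-0.54 to 1.13), with 4 called higher, 1 lower and 4 not called. Without composition factors the median of all genes moved to -0.44 and that of the members to 0.04, so the members lay above all genes by a like distance on both scales. On that scale Ciita and H2-Ab1 were the 2 members called higher and H2-DMa the 1 called lower, Cd74 and H2-DMb1 were each at 0.01, and H2-Oa reversed to -0.07.

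In the dendritic cells labelled knockout, LPS raised 2 members and lowered 1, against 28.7% of all genes called, 15.3% higher and 13.4% lower. Ciita went from 127, 241 and 126 CPM in naive replicates 2, 3 and 4 to 335, 269 and 394 CPM after LPS (log2 fold change 1.01, SE 0.24, adjusted p = 0.0086). H2-Ab1 went from 1208, 1786 and 1053 CPM to 1986, 2297 and 2096 CPM (0.66, SE 0.18, adjusted p = 0.0187). H2-DMa went from 141, 92.1 and 117 CPM to 70.5, 67.4 and 72 CPM and fell by 0.74 (SE 0.13, adjusted p = 0.00171). In each case the groups did not overlap, as for 6 of the 10 members and 41.7% of all genes. The call of H2-Ab1 was lost without naive replicate 2 or 4 or LPS replicate 3 (adjusted p up to 0.0782).

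The other 7 members did not pass the test in these libraries. H2-Aa was at 1481, 2241 and 1297 CPM in naive cells and at 2042, 2307 and 2116 CPM after LPS (log2 fold change 0.37, adjusted p = 0.147). H2-Eb1 was at 1155, 2196 and 1077 CPM and then at 1850, 2290 and 1951 CPM (0.46, adjusted p = 0.179). For both genes naive replicate 3 lay among the LPS libraries, and the other naive libraries lay below them. Cd74 was at 9748, 10500 and 8632 CPM and then at 10781, 11818 and 10645 CPM (0.20, adjusted p = 0.152). H2-DMb1 was at 92.8, 79.7 and 69.6 CPM and then at 83.9, 83.6 and 86.8 CPM, a log2 fold change of 0.07 that reversed to -0.04 without naive replicate 4. H2-Oa and H2-Ob had log2 fold changes of 0.28 and 0.52, and March1 one of -0.26. With the replicate number as a block, which pairs these libraries, H2-Ob was called (0.52, adjusted p = 0.024) and 3 members were higher.

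The count of members higher in these libraries moved with single libraries: it was 1 without naive replicate 2, naive replicate 4 or LPS replicate 3, and 4 without naive replicate 3. Naive replicate 3 held 120 Gpr34 counts, its macrophage markers summed to 824 CPM where the other 5 naive libraries had 1339 to 1631 CPM, and its Ciita level of 241 CPM was the highest of all naive libraries. Without it H2-Aa was at 0.62 (adjusted p = 0.00199) and H2-Eb1 at 0.85 (adjusted p = 0.00112), both called. When the 3 libraries with over 100 Gpr34 counts were left out instead, 4 members were higher as well, with H2-Aa at 0.52 (adjusted p = 0.0392) and H2-Eb1 at 0.69 (adjusted p = 0.0225). That fit sets 1 LPS library, replicate 2, against 2 naive ones, and the lone library is assumed to vary like the other groups. Whether the mix of cells in this culture bears on the class II levels was not tested. The ratio of H2-DMb1 to H2-DMa per kb went from 1.45 ± 0.29 in naive to 2.49 ± 0.0522 after LPS (SD, n = 3 each), and that of Cd74 to H2-Ab1 from 11.3 ± 1.99 to 7.98 ± 0.282, so both moved the way they did in wild type.

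**Figure D3:**
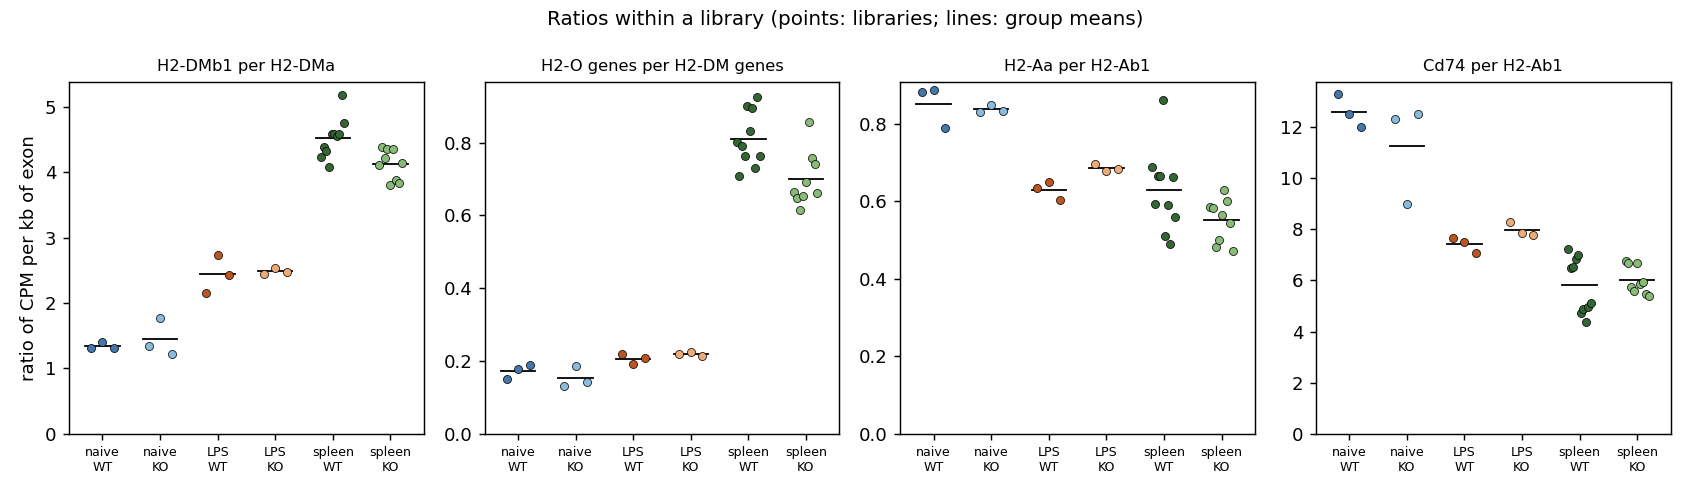
Ratios of CPM per kb of exon within each library (y axis, no unit, from 0) for H2-DMb1 to H2-DMa, the H2-O genes to the H2-DM genes, H2-Aa to H2-Ab1 and Cd74 to H2-Ab1, by group (x axis); points are libraries and lines group means. H2-DMb1 per H2-DMa is higher after LPS than in naive cells and highest in spleen, and the H2-O to H2-DM ratio is 0.811 on average in wild-type spleens against 0.173 in naive wild-type dendritic cells.

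No difference by labelled genotype passed the test for any of the 10 genes in dendritic cells. In naive cells no member was called by edgeR (log2 fold changes -0.20 for H2-Oa to 0.47 for H2-Eb1, adjusted p 0.769 to 0.999), 0 of the members had an unadjusted p under 0.05, and 0% of all genes were called. Over all genes 1139 had an unadjusted p under 0.05, and DESeq2 called 76 and limma voom 1. After LPS no member was called either (-0.29 for H2-DMa to 0.17 for H2-Ob, adjusted p 0.428 to 0.99). H2-DMa was the 1 member with an unadjusted p under 0.05 there, with 81.8 to 91.8 CPM in wild-type and 67.4 to 72 CPM in the libraries labelled knockout. H2-Oa did not overlap either (20.1 to 22.2 and 17.5 to 18.1 CPM), and neither did 2976 of all 16965 genes. Of all genes 0% were called, 1914 had an unadjusted p under 0.05, and DESeq2 called 369 and limma voom 0. The interaction of genotype and LPS, which tests whether the LPS effect differed, ran from -0.65 (SE 0.33) for Ciita to 0.04 (SE 0.27) for H2-Ob with an adjusted p of 1 for every member. It called 0% of all genes by edgeR, with 678 at an unadjusted p under 0.05 (0 of them members), 21 by DESeq2 and 0 by limma voom. Neither of those tools called a member in any of these 3 comparisons. The larger LPS fold changes of wild-type cells, 1.66 against 1.01 for Ciita and 1.19 against 0.66 for H2-Ab1, were therefore not shown to differ from those of the libraries labelled knockout. On simulated counts the interaction test found 20 of 100 genes changed 2-fold.

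Most of the listed regulators of Ciita rose with LPS. Of 11 listed regulators of Ciita, 9 rose and 1 fell with LPS in wild-type cells (median log2 fold change 1.05), and 8 rose and 1 fell in the libraries labelled knockout (0.73). Over all genes, 33.9% were called in wild-type cells and 28.7% in the libraries labelled knockout. Irf1, an interferon-induced transcription factor, rose by 1.41 (SE 0.19, adjusted p = 0.000298) in wild type and by 1.18 (adjusted p = 0.00109) in the labelled knockouts. Ifngr2, a chain of the interferon gamma receptor, rose by 0.69 in wild type. The gene that fell in both sets was Ifngr1, the ligand-binding chain of the same receptor, named here outside the rule after its values were seen: it fell by 1.43 (SE 0.21, adjusted p = 0.000513) and by 1.15 (adjusted p = 0.00224). Id2, a dendritic cell transcription regulator, rose by 0.78 and 0.67. Socs1, a feedback inhibitor of this signalling, rose 2.3-fold in the labelled knockouts (adjusted p = 0.000856).

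Of the 7 listed factors that bind the X and Y boxes, 1 rose in wild-type cells and 0 fell, where 33.9% of all genes were called. It was Rfx5, a DNA-binding subunit of the RFX complex, which rose by 1.13 (SE 0.12, adjusted p = 5.3e-05) in wild type and by 0.74 (adjusted p = 0.00103) in the labelled knockouts. Its RFX partners did not follow: Rfxank had log2 fold changes of -0.25 and -0.37, and Rfxap, named here outside the rule, of -0.07 and -0.38, none of them called. For the NF-Y subunits Nfya and Nfyc the wild-type values were 0.23 (adjusted p = 0.0768) and -0.55 (adjusted p = 0.0797), and Creb1 had 0.43 (adjusted p = 0.072). The median of the list was 0.01 in wild type and 0.11 in the labelled knockouts, close to all genes.

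Genes of antigen processing were called in both directions. Of 10 listed, 2 rose and 3 fell in wild-type cells, and 2 rose and 2 fell in the labelled knockouts. Of all genes, 33.9% and 28.7% were called either way in these 2 comparisons, and the list was not tested as a set. Sppl2a, the membrane protease that cleaves the last stub of Cd74, rose by 1.56 (SE 0.11, adjusted p = 3.84e-06) and by 1.33 (adjusted p = 1.37e-05). Cst3, cystatin C, an inhibitor of cysteine cathepsins, rose by 0.85 and 0.71. Ifi30, a reductase that opens disulfide bonds of antigens, fell by 1.29 (adjusted p = 0.00141) and 1.48 (adjusted p = 0.000816). Ctse, cathepsin E, fell by 3.93 in wild type (SE 0.76, adjusted p = 0.00242), and Lgmn, an asparaginyl protease of endosomes, fell by 0.59 in the labelled knockouts (adjusted p = 0.00703). Ctss, the cathepsin that cleaves Cd74 in dendritic cells, had a wild-type log2 fold change of -0.14 (adjusted p = 0.757) and was looked up for that role, outside the naming rule.

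Among 7 genes of class II turnover, 3 rose and 1 fell in each set of libraries. All genes tested were called at 33.9% in wild type and 28.7% in the labelled knockouts. Cd83, which protects class II from March1, rose by 0.88 and 0.84, and Cd86, a costimulatory ligand that is also a March1 target, by 1.45 and 1.21. Il10, a cytokine known to raise March1, rose by 6.76 (SE 0.82, adjusted p = 0.000131) and 7.34 (adjusted p = 0.000129). The genes that fell were other membrane ligases, March3 in wild type (fell by 2.58, adjusted p = 0.00826) and March2 in the labelled knockouts (fell by 0.51, adjusted p = 0.00238).

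The MHC class I pathway is shown for comparison, since it responds to the same interferon signals through Nlrc5, a relative of Ciita. All 12 measured genes of the list rose in wild-type cells and 10 of 12 in the labelled knockouts, with median log2 fold changes of 0.85 and 0.72 beside 0.45 and 0.32 for the class II members. Of all genes, 18.1% and 15.3% were called higher. Nlrc5 rose by 1.83 (SE 0.12) and 1.70, close to the 1.66 of Ciita in wild type. Tapbp, which loads class I peptides, rose by 1.82 and 1.64, the peptide transporter subunit Tap1 by 1.57 and 1.51, and the immunoproteasome subunit Psmb10 by 1.58 and 1.32. The difference between the lists was not tested. Both sets of LPS comparisons draw on the same fit, and each compares its own naive and LPS libraries.

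In spleen the members held a different balance. H2-Ob was at 437 CPM ± 26.5 (SD, n = 10) in wild-type spleens against 9.69 CPM ± 2.13 (SD, n = 3) in naive wild-type dendritic cells. It was the lowest member per kb in dendritic cells (1.8 CPM per kb) and stood at 81.3 CPM per kb in spleen, above H2-Oa (41.8), H2-DMa (27.9) and Ciita (25.8). H2-DMb1 was at 125 CPM per kb in spleen. The H2-O genes summed to 0.811 ± 0.0757 (SD, n = 10) of the H2-DM genes per kb, and no spleen (lowest 0.614, a knockout) came near any dendritic cell library (highest 0.224). Spleen is rich in B cells, and the 10 B cell markers summed to 3888 to 4655 CPM in wild-type spleens and to 33.7 to 39.8 CPM in naive wild-type dendritic cells. After LPS that sum was 205 to 244 CPM in wild-type cultures, nearly all of it Cd72 (214 CPM), while Cd79a was at 0.0851 CPM. Dendritic cells and spleens differ in source, tissue and depth, so these levels are set side by side with no test.

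As in dendritic cells, Cd74 came first per kb and the class II chains next. Cd74 was at 5365 CPM per kb in wild-type spleens, H2-Ab1 (936), H2-Eb1 (926) and H2-Aa (576) followed, and March1 was lowest at 20.3 CPM per kb. H2-Ab1 and H2-Eb1 did not differ beyond their spread. The ratio of H2-DMb1 to H2-DMa per kb was 4.53 ± 0.301 (SD, n = 10) in wild-type spleens, above all dendritic cell libraries.

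**Figure D4:**
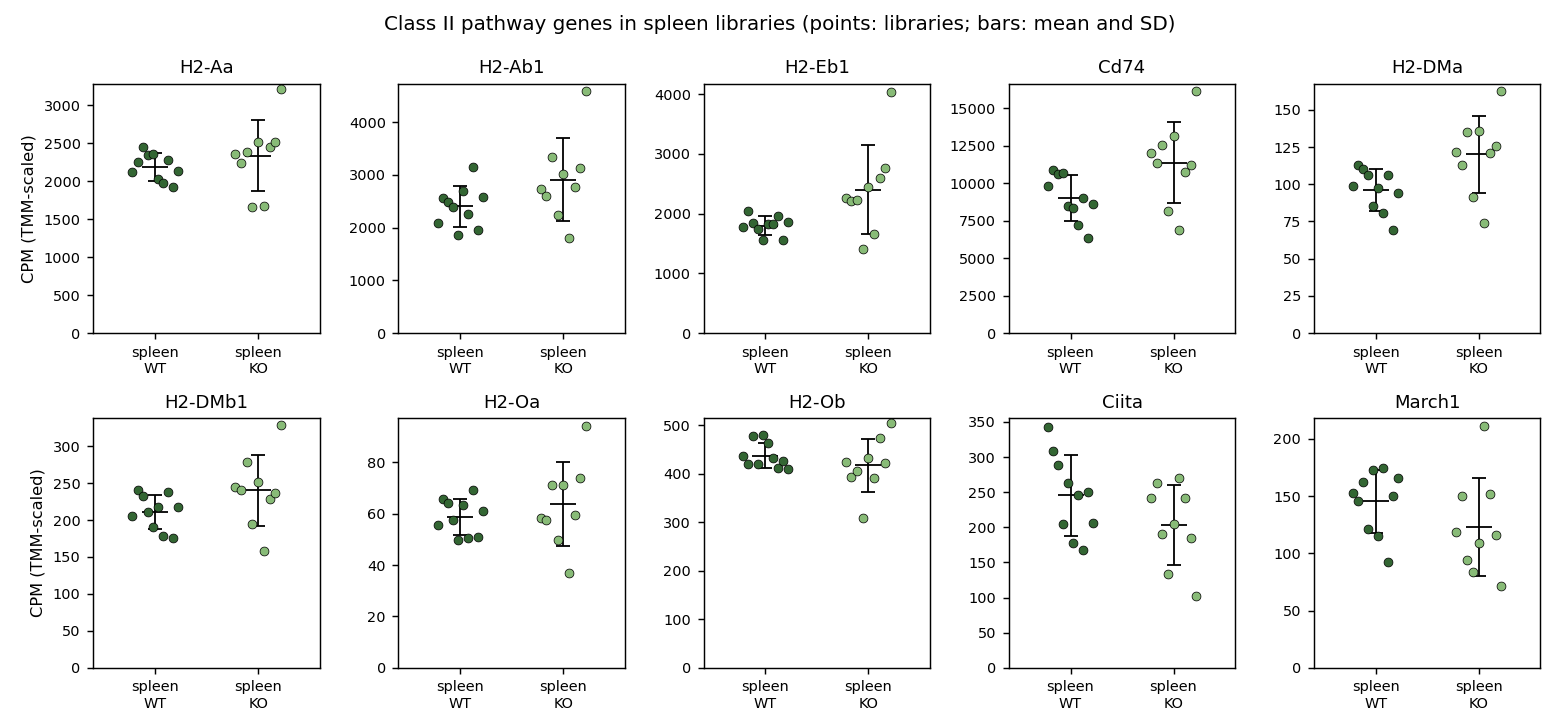
Level of each of the 10 genes (y axis, CPM on TMM-scaled library sizes, from 0) in 10 wild-type (WT) and 9 knockout (KO) spleens; points are libraries, bars mean and SD. The knockout spleens spread more widely than the wild-type ones for H2-Ab1, H2-Eb1 and Cd74, and the groups overlap for all 10 genes.

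No member passed the test for genotype in spleen (0 of 10 by DESeq2 as well, 2 by limma voom), where edgeR called 36 of 20371 genes (0.177%). Of the members 3 had an unadjusted p under 0.05: H2-Eb1, Cd74 and H2-DMa. So had 3541 of the 20371 genes. H2-Eb1 was at 1555 to 2047 CPM (median 1825) in wild-type spleens and at 1408 to 4046 CPM (median 2262) in knockouts, and the difference was 0.42 on the log2 scale (SE 0.14, adjusted p = 0.145). Cd74 was at 6367 to 10903 CPM (median 8816) and at 6889 to 16148 CPM (median 11362), with 0.33 (SE 0.13, adjusted p = 0.219). H2-DMa was at 69.5 to 113 CPM (median 98.3) and at 74.3 to 163 CPM (median 122), with 0.32 (SE 0.12, adjusted p = 0.191). In each of them the knockout range took in nearly the whole wild-type range and ran above it. Without knockout spleen 6, H2-Eb1 (0.47, adjusted p = 0.0455) and H2-DMa (0.39, adjusted p = 0.0394) were called. They were also called without knockout spleens 4, 6 and 9 (H2-Eb1 0.43, adjusted p = 0.0105, and H2-DMa 0.39, adjusted p = 0.0442), and with limma voom, which weights libraries (0.38, adjusted p = 0.0287, and 0.38, adjusted p = 0.0495). The whole fit moved with these libraries too, since 1051 genes were called without knockout spleen 6.

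The other 7 members ranged as follows. H2-Ab1 was at 1857 to 3144 CPM (median 2442) in wild-type spleens and at 1800 to 4591 CPM (median 2766) in knockouts (log2 fold change 0.28, adjusted p = 0.299). H2-Aa was at 1922 to 2446 CPM and at 1664 to 3206 CPM (0.09, adjusted p = 0.643). H2-DMb1 (0.19), H2-Oa (0.11) and H2-Ob (-0.07) lay close to 0. Ciita was at 168 to 343 CPM (median 248) in wild-type spleens and at 102 to 270 CPM (median 204) in knockouts (-0.27, adjusted p = 0.42). March1 was at 92.4 to 175 CPM and at 71.4 to 211 CPM (-0.24, adjusted p = 0.476). So the 2 regulators had negative values while the class II chains, Cd74 and the H2-DM genes had positive ones, none of which passed.

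Single spleens differed in how these genes went together. Knockout spleen 9 was the highest of all for H2-Ab1 (4591 CPM), H2-Eb1 (4046), Cd74 (16148) and H2-DMa (163), and the lowest of all for Ciita (102 CPM) and March1 (71.4). Knockout spleen 6 had the lowest H2-Ab1 (1800 CPM) and H2-Oa (37.1) of all and the highest March1 (211), while its Ciita level of 270 CPM was the highest of the knockouts and below the highest wild-type spleen (343). Knockout spleen 4, with an erythroid marker sum of 286798 CPM where the other spleens had 29251 to 135147 CPM, had the lowest H2-Eb1 (1408 CPM) and H2-Ob (308) of all together with low Ciita (134) and March1 (84). The B cell marker sum was 4898 CPM in knockout spleen 9, 3747 in knockout spleen 6 and 3074 in knockout spleen 4, against 3888 to 4655 in wild type, and the part of cell mix in these levels was not tested.

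Over the 19 spleens the levels of the members were compared with H2-Ab1 in 9 relations, each with a permutation test (100000 draws) and Benjamini-Hochberg adjustment. H2-Oa (Pearson's r = 0.92, Spearman's rho = 0.90), H2-DMb1 (0.93 and 0.87), H2-DMa (0.89 and 0.85) and H2-Eb1 (0.86 and 0.88) followed H2-Ab1 closely, each with a permutation p of 1e-05 for r, the smallest these draws can give (adjusted 2.2e-05). Without the 2 libraries farthest from the median H2-Ab1 level, knockout spleens 6 and 9, these r values were 0.89, 0.86, 0.82 and 0.77. Within the wild-type spleens r was 0.90 for H2-Oa, 0.79 for H2-DMb1, 0.66 for H2-DMa and 0.83 for H2-Eb1, so the relation was there without any knockout library. Cd74 had r = 0.79 and rho = 0.76 (permutation p = 9e-05, adjusted 0.00016), with 0.65 without the 2 libraries, 0.36 in wild type and 0.94 in knockouts. Cd74 per H2-Ab1 per kb was 6.5 to 7.23 in wild-type spleens 1 to 5 and 4.38 to 5.12 in 6 to 10. In knockout spleens 1 to 5 and 6 to 9 it overlapped (5.57 to 6.74 and 5.38 to 5.92). The labels used here give no reason for this split by number. The permutations exchanged all 19 libraries, across it and across genotype. H2-Aa, the chain that pairs with H2-Ab1, had r = 0.76 and rho = 0.69 (permutation p = 0.00025, adjusted 0.00032), with 0.50 without them and 0.19 in wild type, so its relation rested largely on the knockout spleens (0.93).

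Ciita ran against H2-Ab1. It had r = -0.66 and rho = -0.63 (permutation p = 0.0022, adjusted 0.0025), with -0.42 without the 2 farthest libraries, -0.60 in wild type and -0.62 in knockouts. March1 did likewise, with r = -0.75 and rho = -0.68 (permutation p = 0.00018, adjusted 0.00027), -0.55 without them, -0.69 in wild type and -0.72 in knockouts. H2-Ob, a gene typical of B cells, had r = 0.27 and rho = 0.09 (permutation p = 0.25, adjusted 0.25) and values of opposite sign in wild type (-0.36) and knockouts (0.66). These libraries share 1 scaling, and marker sums of other cells moved with the members. As a description over the 19 spleens, the T cell marker sum had r = 0.62 with H2-Ab1, 0.77 with H2-DMb1, 0.72 with Cd74 and -0.47 with March1. The neutrophil sum had r = -0.51 with Ciita and -0.66 with March1, and the B cell sum 0.38 with H2-Ab1 and 0.82 with H2-Aa. The exon lengths of the members differ too, with 9.535 kb for Ciita, 7.146 for March1 and 5.38 for H2-Ob. H2-Oa has 1.407 kb and H2-Eb1 1.944 kb. Cd74, at 1.679 kb, had r = 0.36 in wild type, below H2-DMa (3.448 kb, 0.66). The part of the marker sums, of exon length and of the split of wild-type spleens by number in these relations was not tested. In dendritic cells the libraries fall into naive and LPS clusters, so no pooled correlation is given, and Ciita and H2-Ab1 rose together there.

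**Figure D5:**
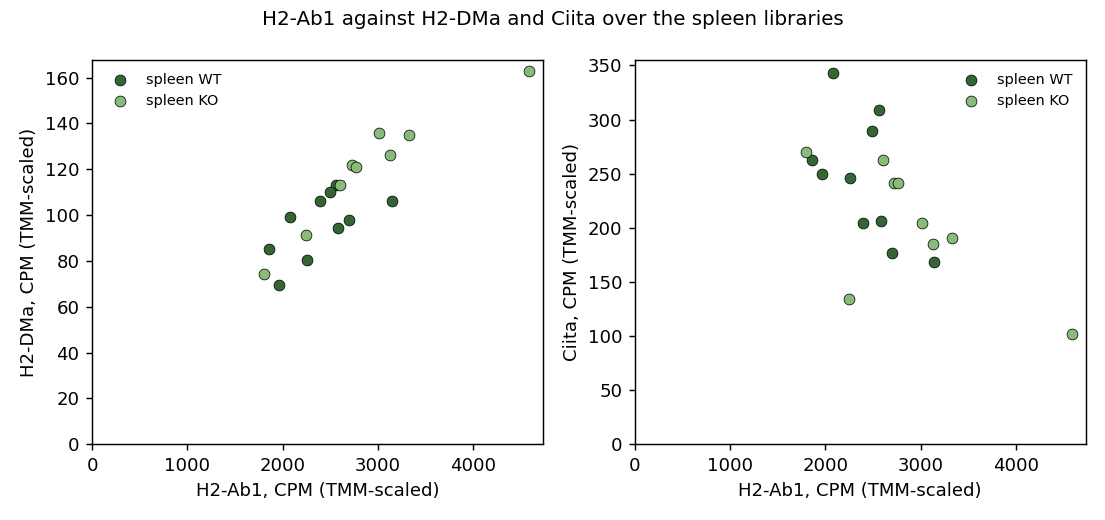
H2-DMa (left, y axis) and Ciita (right, y axis) against H2-Ab1 (x axis), all in CPM on TMM-scaled library sizes, for 10 wild-type and 9 knockout spleens; each point is a library. H2-DMa rises with H2-Ab1 (r = 0.89) and Ciita falls with it (r = -0.66), and the knockout spleen with the highest H2-Ab1 level, 4591 CPM, has the lowest Ciita level, 102 CPM.

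Among the genes whose log2 CPM pattern over the 19 spleens was most like H2-Ab1, of 13298 genes, were Psmb10 (r = 0.958), the pseudogenes Rps16-ps2 (0.955) and Rpl13-ps6 (0.955), and Coro1a (0.951). Those most like Ciita were Ikzf1 (0.967), Gnptab (0.952), Rbl2 (0.949), Eif4g3 (0.947) and Pik3cg (0.947). Psmb10 encodes an immunoproteasome subunit and Coro1a an actin-binding protein of leukocytes, while Ikzf1 encodes a lymphoid transcription factor. These likenesses are descriptions over libraries that share their scaling and, within each genotype, their group.

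The 6 lists of pathway genes around the members gave 0 calls by edgeR in the knockout spleens. The smallest adjusted p values among them were those of Tapbp (log2 fold change 0.40, SE 0.09, adjusted p = 0.0609) and Psap, the precursor of saposins (0.23, SE 0.06, adjusted p = 0.0692). Rfx5 had -0.27 (adjusted p = 0.148), Prdm1, a repressor of Ciita, had -0.53 (adjusted p = 0.134) and Spi1, a myeloid transcription factor, had 0.31 (adjusted p = 0.139). At an unadjusted p under 0.05 there were 2 of the 7 X and Y box factors, 4 of the 11 regulators of Ciita, 2 of the 10 processing genes, 0 of the 7 turnover genes and 6 of the 12 class I genes. Over all genes 3541 of 20371 were under that threshold, and no list was tested as a set. DESeq2 called 1 regulator, 1 processing gene and 1 class I gene, and limma voom 1 processing gene, 2 class I genes and 1 of the other class II genes.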

How the data were processed

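RNA was measured by RNA-seq in 31 libraries, grouped by their labels. The deposited files hold raw counts of reads, as whole numbers for each Ensembl gene ID, with 1 file a library; a gene without a line was set to 0. The submitters' processing notes name TopHat 1.3.3, SAMtools, bedtools, DESeq and mm9 and give them no role. No source used here says whether strand was used or how multiply placed reads were counted, which makes H2-DMb1 and H2-DMb2, closely related copies, and overlapping genes uncertain. Gene places and exon lengths are those of GRCm38 (GENCODE M21), not mm9. Of 29120 IDs 26090 had a symbol.

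The 10 genes and the lists around them were chosen with earlier results of these data known. The test was edgeR 4.0.16 (quasi-likelihood, robust; R 4.3.3) after filterByExpr and TMM, 1 fit for the 12 dendritic cell libraries (16965 genes) and 1 for the 19 spleens (20371 genes), with Benjamini-Hochberg adjustment over all genes at 0.05. The SE of a log2 fold change comes from the F statistic. All 10 members are named; of each other list up to 4 genes with the smallest p per comparison; of likenesses, given over the spleens, the 5 highest correlations per gene, among genes with a mean of at least 1 CPM; some of the genes this rule names are not reported here. Alternatives were DESeq2 1.42.0, limma voom (limma 3.58.1), RLE factors, no composition factors, no filter, the libraries compared alone, a replicate block and each library left out; leaving out libraries by Gpr34 counts, naive knockout 3, or knockout spleens 4, 6 and 9 was chosen after seeing the data. All pairs of replicates differed beyond sampling noise (smallest chi-square per gene 26.8).

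Deviations of same-numbered libraries correlated at 0.205, 0.286 and 0.17 in the dendritic cells labelled knockout, so those numbers may mark pairs. In wild-type cells (0.0384 and 0.057) and spleens (-0.47 to 0.613) they were not taken as pairs. The main fits hold no pairing in any group, so the main p-values for LPS in the labelled knockouts are unpaired. The replicate block was an alternative run, with an effect per number shared by both labelled genotypes. On simulated counts with 200 changed genes the tests called none in the wrong direction and found 50 of 100 genes changed 2-fold for LPS in wild type, 42 for LPS in the labelled knockouts and 86 in spleen. The labels mention no molecular identifiers, so counts may not all be independent molecules.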

Additional observations from a re-analysis of the deposited data

How the results depend on the processing

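Without composition factors 2 members were higher with LPS in wild-type cells and 1 in the labelled knockouts, where the members' median was -0.00 beside -0.35 for all genes; H2-Oa reversed to -0.07 and -0.05, H2-DMb1 to -0.26 and Cd74 to -0.12 (the last pair in the labelled knockouts). With each library left out in turn, 3 to 7 members were higher and 0 to 1 lower in wild type, and 1 to 4 higher in the labelled knockouts; the log2 fold change of March1 ran from -0.37 to 0.02 in wild type and that of H2-DMb1 from -0.04 to 0.17 in the labelled knockouts. The replicate block gave 7 higher and 0 lower in wild type, where the numbers do not pair the libraries, reversed March1 to 0.04 and left 3 genes called in spleen; in the labelled knockouts it changed no other call than that of H2-Ob. limma voom called 6 members higher in the labelled knockouts and 2 in spleen. Leaving out the 3 libraries labelled knockout with over 100 Gpr34 counts gave 4 members higher there, 6 genes for genotype after LPS and 3 for the interaction, all resting on 1 LPS library of that genotype, assumed to vary like the other groups.

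Genes called for genotype in naive cells were 76 with DESeq2, 1 with voom, 1 with no filter and 0 to 1 with a library left out; after LPS they were 369 with DESeq2, 0 to 1 with a library left out and 2 without naive knockout 3; for the interaction DESeq2 gave 21. In spleen the 36 became 878 with DESeq2, 790 with voom, 190 without composition factors, 297 without knockout spleens 4, 6 and 9 and 8 to 1051 with a library left out, while 0 to 2 members were higher, and 2 without knockout spleens 4, 6 and 9. The cause was not tested in any of these. On TMM-scaled sizes the members' share of counts was 1.27% in naive wild-type cells, 1.92% in LPS wild-type cells and 1.8% in LPS cells labelled knockout. Ratios of counts with no length term differ from those per kb by construction, and some lie on the other side of 1. In naive wild-type cells H2-Aa per H2-Ab1 was 0.852 per kb and 1.26 by counts. H2-DMb1 per H2-DMa was 1.35 per kb and 0.656 by counts there. In wild-type spleens the H2-O to H2-DM ratio was 0.811 per kb and 1.64 by counts. Which gene of such a pair is higher thus rests on the exon lengths. No member called in an LPS comparison reversed there under an alternative run. Ciita kept its call in both sets of LPS libraries under every alternative run, and H2-Ab1 did in wild type.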

Other observations

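The class II region holds 3 further listed genes. H2-Eb2, a beta chain gene beside H2-Eb1, varied widely between libraries: it was at 16.4 to 62.8 CPM (median 25.7) in wild-type spleens and at 11.2 to 190 CPM (median 69) in knockout spleens, a difference of 1.05 on the log2 scale (SE 0.42, adjusted p = 0.214). In dendritic cells it was at 33.2 CPM in naive replicate 3 labelled knockout and at 4.71 to 14.7 CPM in the other naive libraries. H2-DMb2, the other H2-DM beta chain gene, was at 308 CPM ± 19.2 (SD, n = 10) in wild-type spleens and at 357 CPM ± 59.9 (SD, n = 9) in knockouts (0.21, adjusted p = 0.221).

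H2-Ea-ps, the defective I-E alpha chain gene of this strain, had at most 10 counts in each of the 10 wild-type spleens and in 7 of the 9 knockout spleens. Knockout spleen 1 held 1632 counts (17.8 CPM) and knockout spleen 9 held 2975 counts (28.2 CPM). In dendritic cells, naive wild-type replicates 1 and 4 held 135 and 155 of its reads, against 165 in naive replicate 4 labelled knockout and 255 in LPS replicate 3 labelled knockout, and at most 4 counts in the other 8 libraries. The gene did not pass the filter in spleen and was not tested there. It was listed under the symbol H2-Ea.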
